A study of Mus musculus with 4 samples.

Results

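AP-1 is a family of transcription factors, and 8 of its genes were followed here in mouse aortic vascular smooth muscle cells given prostaglandin E2 (PGE2): Fos, Fosb, Fosl1, Fosl2, Jun, Junb, Jund and Atf3. They were taken by gene symbol from the deposited table of the series, where they have 13 of 56605 probes and are 8 of 27306 gene symbols. All cells were aortic VSMCs with the genotype EP4-Tg on the C57BL/6J strain, grown out of adult aortic explants and kept in DMEM. Cultures treated with PGE2 for 24 h (n = 2) were compared with cultures left without treatment for 24 h (n = 2), with 1 single-colour Agilent array per culture. EP4 is one of the receptors of PGE2 and signals through Gs proteins and cyclic AMP. The labels do not give the promoter or species of the EP4 transgene, the dose of PGE2 or whether the cultures came from separate mice, and both groups carry the transgene, so the comparison is of treatment within transgenic cells.

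AP-1 factors bind DNA as dimers through a basic region and a leucine zipper. Jun proteins pair with each other or with Fos proteins, while Fos proteins need a Jun partner, and the makeup of the dimer sets how strongly it activates transcription. Fos, Fosb, Jun and Junb are known as immediate early genes whose transcripts rise soon after a stimulus and fade, Fosl1 and Fosl2 are known as later members, and Atf3 is a stress-inducible member of the ATF/CREB family that can pair with Jun proteins. Cyclic AMP acts on several of these genes through CREB, which binds the cAMP response element.

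Junb and Fosl2 were the members with the highest PGE2 signals relative to control, at 3.27-fold and 2.85-fold, and Jund stood at 1.60-fold. Atf3 was lower on both PGE2 arrays than on both control arrays, but only 1 of its PGE2 arrays was well above background. Jun, Fos and Fosb gave overlapping arrays in the groups. None of these differences passed an adjusted p of 0.05 in a limma fit over 17660 tested genes, and the smallest adjusted p of a member was 0.0635, for Fosl2. Of the 8 members 7 were tested, since a probe was kept only if both arrays of 1 group, or of each, were well above background, and the single Fosl1 probe failed this. Of those 7, 0 were called higher and 0 lower, where 0.396% and 0.272% of all tested genes were called higher and lower. At an unadjusted p under 0.05 Fosl2 and Junb stood higher, where 7.31% of all tested genes did. Atf3 stood lower at that level, where 10.5% of all tested genes did, but it was kept only through the control arrays, where it is high, so its place in these counts is a description. Both PGE2 arrays lay above both control arrays for 3 members and below them for 1, against 24.0% and 28.3% of all tested genes, or 52.2% in either direction. With 2 arrays per group an exact permutation test cannot go below a two-sided p of 0.333, so each test rests on the spread that the fit shares across genes. The p-values measure only the spread between these cultures.

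**Figure D1:**
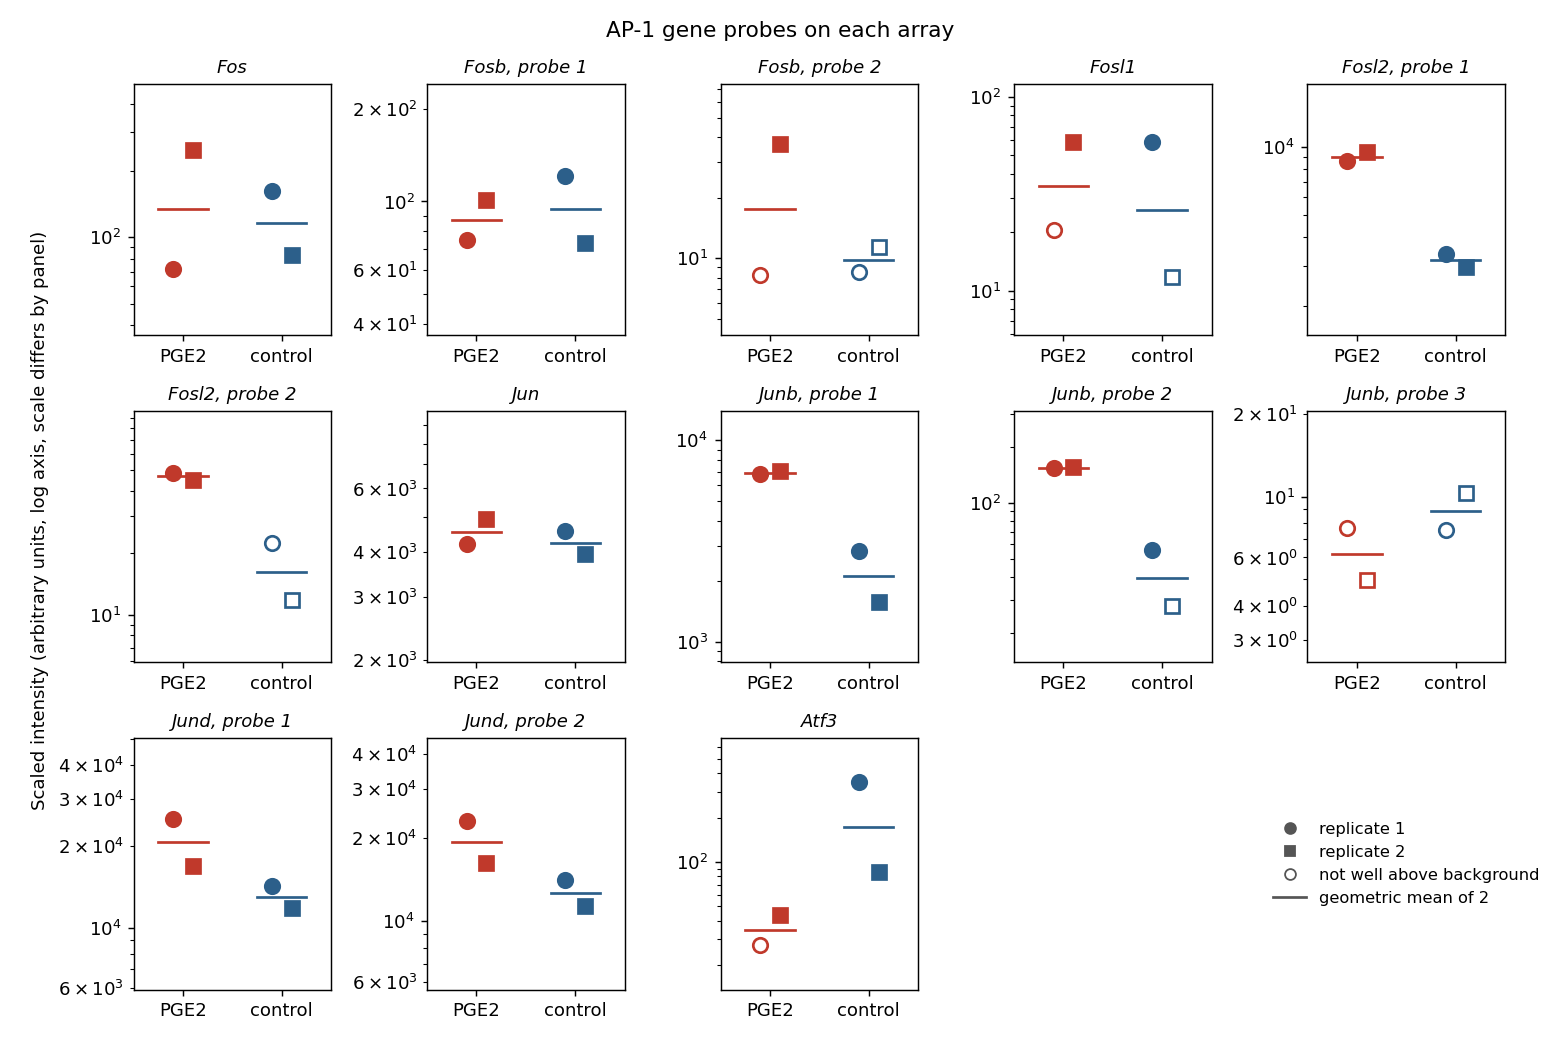
Scaled intensity on a log axis for each of the 13 probes of the 8 AP-1 genes, with PGE2 arrays in red and control arrays in blue. Circles are replicate 1, squares replicate 2, open symbols mark signals not well above background and bars are geometric means of 2 arrays. The 2 PGE2 arrays stand above both control arrays for probes 1 and 2 of Fosl2, Junb and Jund and below them for Atf3. Probe 2 of Fosl2 and probe 2 of Junb were kept only through their PGE2 arrays, and Atf3 only through its control arrays.

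Promoter sequence is shown for the 4 members whose groups did not overlap and for Fos, the best known target of CREB in the family. RefSeq promoters, in build GRCm38.p6, were at hand for 7 of the 8 members, and the 250 bases before the listed start of each gene are printed from 5′ to 3′ on the gene's strand. Capitals mark the half-site of the cAMP response element, TGACG or its reverse complement.
Fosl2, chr5:32136222-32136471, plus strand: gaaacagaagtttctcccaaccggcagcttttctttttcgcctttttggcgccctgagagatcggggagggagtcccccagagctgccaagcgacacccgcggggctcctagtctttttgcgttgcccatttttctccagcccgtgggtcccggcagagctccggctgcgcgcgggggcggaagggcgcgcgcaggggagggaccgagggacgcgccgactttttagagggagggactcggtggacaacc
Junb, chr8:84978749-84978998, minus strand: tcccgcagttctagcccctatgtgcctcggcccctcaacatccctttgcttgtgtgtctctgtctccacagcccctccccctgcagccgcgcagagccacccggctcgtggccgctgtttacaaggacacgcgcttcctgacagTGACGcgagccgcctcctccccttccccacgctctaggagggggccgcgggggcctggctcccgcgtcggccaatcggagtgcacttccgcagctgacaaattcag
Jund, chr8:70697489-70697738, plus strand: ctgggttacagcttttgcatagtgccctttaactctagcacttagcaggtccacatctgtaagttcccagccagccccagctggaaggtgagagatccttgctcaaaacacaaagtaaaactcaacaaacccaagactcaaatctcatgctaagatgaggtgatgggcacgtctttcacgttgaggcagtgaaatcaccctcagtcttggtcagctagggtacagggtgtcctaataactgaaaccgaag
Atf3, chr1:191183334-191183583, minus strand: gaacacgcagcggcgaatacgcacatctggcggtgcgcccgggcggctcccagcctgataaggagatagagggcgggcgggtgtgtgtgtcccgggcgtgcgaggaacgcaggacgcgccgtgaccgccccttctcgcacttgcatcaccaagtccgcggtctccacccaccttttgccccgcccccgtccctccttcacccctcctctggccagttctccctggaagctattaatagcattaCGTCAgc
Fos, chr12:85473640-85473889, plus strand: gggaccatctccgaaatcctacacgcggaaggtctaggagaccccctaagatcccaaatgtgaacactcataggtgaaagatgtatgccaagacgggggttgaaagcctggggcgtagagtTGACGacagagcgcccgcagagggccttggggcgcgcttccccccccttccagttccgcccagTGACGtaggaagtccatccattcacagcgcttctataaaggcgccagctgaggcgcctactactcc
The half-site occurred in 4 of the 7 promoters, in Fos, Fosb, Junb and Atf3, and in 17.8% of 32851 promoter windows of the same length. In Junb it lay 106 to 102 bases before the start, in Atf3 7 to 3 bases and in Fosb 60 to 56 bases, while Fos had a pair of them at 129 to 125 and 66 to 62 bases. Of the 3 genes with higher signals on both PGE2 arrays, Junb held the half-site, and no match was found in the windows of Fosl2 and Jund. The full element TGACGTCA, which contains the half-site on both strands, the AP-1 site TGANTCA and the CArG box bound by SRF were searched on both strands as well and matched 0 of the 7 windows, against 1.55%, 6.75% and 1.47% of all windows. Sequence outside these 250 bases, or before other starts of a gene, was not searched, so no match here does not mean that a gene lacks the site. A match is a match of letters and was not tested as a binding site.

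Among the Jun genes, Junb (cytoband 8qC3), whose protein activates many AP-1 sites less strongly than Jun, had intensities of 6826 and 7019 on the PGE2 arrays, against 2838 and 1576 on control arrays 1 and 2. Intensities are given after scaling every array to a common 75th percentile and have no absolute unit, so they compare arrays for 1 probe and not probes with each other. The 2 PGE2 cultures were nearly equal and the control cultures differed 1.80-fold, without overlap between groups. The log2 change, PGE2 minus control, was 1.71 ± 0.33 (SE, n = 2 per group; adjusted p = 0.131, limma). A second, dimmer Junb probe gave 153 and 155 with PGE2, against 56.0 and 27.9 in control, the last not well above background. It was kept through its PGE2 arrays and has 1 measured control array, so no size is drawn from it. The last Junb probe stayed near background throughout, at 7.69 and 4.97 with PGE2, against 7.58 and 10.3 in control, and was not tested. The interval of the brightest probe was wide, with 95% limits of 1.75-fold and 6.12-fold before any adjustment for the number of genes.

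Jund (8qB3.3), usually the most steadily expressed Jun gene, read 25201 and 16968 with PGE2, against 14238 and 11787 in control. The second Jund probe followed it closely, with 22929 and 16203 in PGE2 cultures and 14085 and 11300 in control cultures. On both probes the higher of the control arrays lay below the lower of the PGE2 arrays, but the PGE2 cultures themselves differed 1.49-fold and 1.42-fold. The log2 changes were 0.67 ± 0.27 (adjusted p = 0.302, limma) and 0.61 ± 0.26 (adjusted p = 0.332 in a limma fit over all 26100 kept probes). Without PGE2 replicate 1, the brighter probe stood at 0.39 and without PGE2 replicate 2 at 0.96.

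Jun itself (4qC5), the founding member and the strongest activator among Jun proteins, had 4197 and 4938 with PGE2, against 4575 and 3929 in control. The groups interleaved, and replicates lay within 1.18-fold of each other. The log2 change was 0.10 ± 0.19 (adjusted p = 0.806, limma), with 95% limits of 0.755-fold and 1.53-fold.

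Among the Fos genes, Fosl2 (5qB1), which encodes Fra-2, had the smallest standard error of the tested members. Its bright probe read 8637 and 9460 with PGE2, against 3392 and 2967 in control. The replicates lay within 1.095-fold (PGE2) and 1.14-fold (control) of each other and the groups were well apart. The log2 change was 1.51 ± 0.17 (adjusted p = 0.0635, limma), with 95% limits of 2.07-fold and 3.93-fold. Of all tested genes, 2.66% had a higher change and 1.15% a smaller p. With an intensity trend in the variance model Fosl2 passed the threshold (adjusted p = 0.0460, limma), and it was the only member to pass in any alternative that was run. A second, dim Fosl2 probe read 48.5 and 45.1 with PGE2, against control signals of 22.4 and 11.9 that were not well above background. Its PGE2 signal was higher at least 1.14-fold, a bound set by the dimmest signals that are well above background on the control arrays (adjusted p = 0.165 in the fit over probes). This probe was kept only through its PGE2 arrays, where it is high, so it gives the bright probe no separate support.

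Fos (12qD2), the immediate early gene that gave the family its name, showed the widest spread between replicates among members above background on all arrays. Its intensities were 72.1 and 247 with PGE2, against 162 and 83.2 in control. PGE2 replicate 2 was the highest of the 4 arrays and PGE2 replicate 1 the lowest, a 3.42-fold gap between cultures of 1 group, and only 2.25% of all tested genes had a larger gap between the PGE2 arrays. The log2 change was 0.20 ± 0.72 (adjusted p = 0.904, limma), with 95% limits of -1.76 and 2.16. It was -0.69 without PGE2 replicate 2 and 1.09 without PGE2 replicate 1, so neither a direction nor a size was determined for Fos.

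Fosb (7qA3), whose shorter splice form gives a protein that accumulates after repeated stimulation, read 74.9 and 101 with PGE2, against 121 and 73.5 in control. The groups overlapped, and the log2 change was -0.11 ± 0.33 (adjusted p = 0.881, limma), with 95% limits of -1.01 and 0.78. Its sign turned to 0.018 with quantile normalization. It was 0.14 on the authors' scaled values, where the median of all tested genes stood at 0.23. A second Fosb probe was well above background only on PGE2 array 2, at 37.0, and stood at 8.26 on PGE2 array 1, against 8.56 and 11.3 on the control arrays. That array was also the highest of the 4 for Fos, and it had the largest share of spots well above background (53.8%). The brighter Fosb probe was instead highest on control array 1. Fosl1 (19qA), which encodes Fra-1, was well above background on 1 array of each group, with 20.6 and 58.4 in PGE2 cultures and 58.1 and 11.8 in control cultures. It was not tested and has no direction in these data.

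Atf3 (1qH6) was the member with the lowest PGE2 signal relative to control. Its single probe read 27.1 and 43.7 with PGE2, the first not well above background, against 347 and 85.7 in control. Both PGE2 arrays lay below both control arrays. The control cultures differed 4.05-fold from each other, and 1.94% of all tested genes had a larger gap between controls. The log2 change was -2.33 ± 0.75 (adjusted p = 0.247, limma), with 95% limits of -4.39 and -0.26. Its size rested on single arrays and on the background correction: the change was -1.32 without control replicate 1, -3.33 without control replicate 2 and -1.13 with normexp correction. Atf3 passed the filter on dim probes through the control arrays alone, and with PGE2 1 of 2 arrays measured it.

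**Figure D2:**
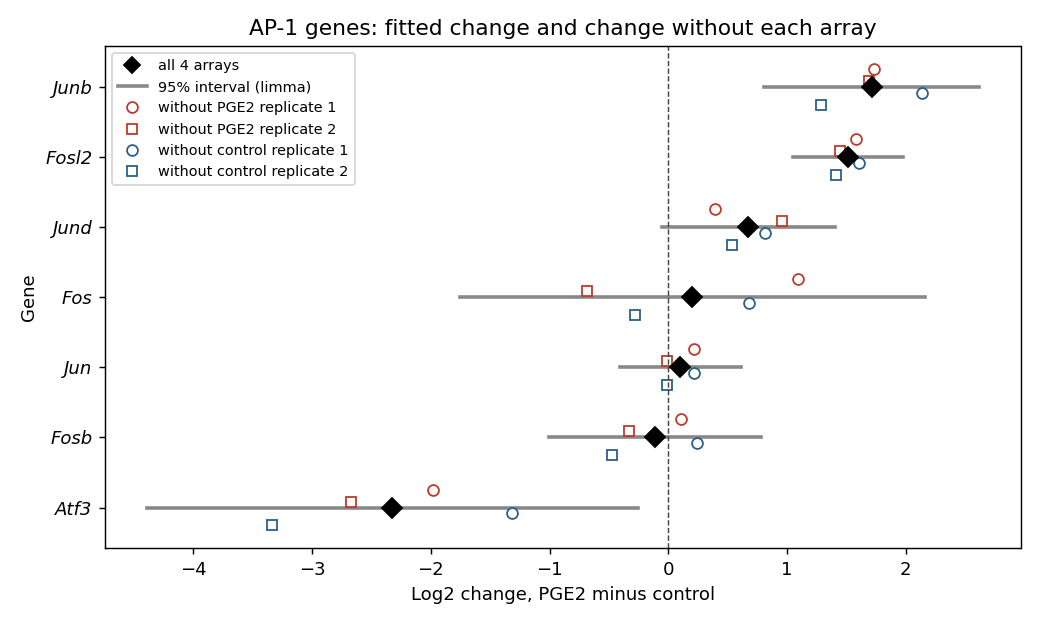
Log2 change, PGE2 minus control, of the 7 tested members on the horizontal axis, 1 gene per line. Black diamonds are the fit to all 4 arrays, grey lines its 95% intervals and open symbols the change after leaving out 1 array. Junb, Fosl2 and Jund stay above 0 and Atf3 below 0 without any 1 array. This follows from their groups not overlapping and is no further test of direction. Fos, Jun and Fosb, whose groups overlap, fall on both sides of 0.

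The arrays allowed a check of the labelled cell type. Of 8 smooth muscle markers, 5 (Acta2, Tagln, Cnn1, Smtn and Mylk) were well above background on all 4 arrays, while Myh11 was so on 1 array of each group, Lmod1 on 1 control array and Des on 1 PGE2 array. The summed intensity of the 5 tested markers was 75063 and 100380 with PGE2, against 414659 and 236433 in control. By log2 change Cnn1 stood at -2.26, Acta2 at -2.10, Tagln at -1.79, Smtn at -0.33 and Mylk at -0.07, and none was called. Of 8 fibroblast or adventitial markers, 7 were above background on all arrays (sums of 254856 and 207656 with PGE2, against 358029 and 254639 in control). A sum is set by its brightest probes, and these markers went different ways: Ly6a rose by a log2 change of 4.20 (adjusted p = 0.0438, limma), and Pi16 stood at 2.78, Pdgfra at 0.60, Lum at -2.17 and Dcn at -2.91, none of these called. Of 8 macrophage markers 5 were (35713 and 23978, against 45106 and 37058), with Adgre1, Lyz2 and Mrc1 above background on no array. None of the 5 was called, with Cd68 at 2.09, Csf1r at 0.98, Cd14 at 0.62, Ptprc at -0.36 and Itgam at -0.61. Of 8 endothelial markers 1 was (41.0 and 51.0, against 47.6 and 54.2), of 7 lymphocyte markers 2 (1625 and 1493, against 1977 and 1534, over 3 tested markers) and of 5 adipocyte markers 1 (160 and 160, against 175 and 178). The part of cell composition in the AP-1 values was not tested, and in bulk RNA fewer cells of a type and less RNA per cell cannot be told apart. Between 47.9% and 53.8% of spots per array were well above background, 0 spots were saturated, and replicate arrays correlated across genes at r = 0.978 for PGE2 and 0.974 for control.

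Other basic leucine zipper factors can pair with AP-1 proteins or compete for related sites. Of 23 such genes 18 were tested and 0 were called in either direction. Of all tested genes, 0.396% were called higher and 0.272% lower, so 0 calls in so short a list says little about it. Their median log2 change was -0.21, against -0.03 over all tested genes, or 0.05 on the authors' scaled values, a scale on which the median of all genes stood at 0.23. It was 0.03 without control replicate 1. Nfe2l2, which encodes the antioxidant regulator NRF2, read 10075 and 10842 with PGE2, against 4980 and 4935 in control, without overlap. Its log2 change was 1.08 ± 0.15 (adjusted p = 0.0874, limma). Atf5 stood at -0.95 ± 0.33 and Nfe2l3 at -0.55 ± 0.16 (adjusted p = 0.269 and 0.219). Maff, a small Maf protein gene, read 1400 and 1798 with PGE2, against 1221 and 994 in control. Jdp2, a repressive partner of Jun, read 2544 and 2483 with PGE2, against 5361 and 2651 in control, and Atf4, the effector of the integrated stress response, 20470 and 20449, against 56667 and 18509. For both genes control array 1 was the highest of the 4, as it was for Atf3. Batf3 was not tested.

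Of 28 immediate early or early response genes outside AP-1, 26 were tested and 0 were called, where 0.396% and 0.272% of all tested genes were called higher and lower. Their median log2 change was -0.02, or 0.05 without PGE2 replicate 2 and 0.05 without control replicate 1. On the authors' scaled values it was 0.24, against 0.23 over all tested genes. At an unadjusted p under 0.05, 5 stood higher and 5 lower, where 7.31% and 10.5% of all tested genes did. This list too was chosen with earlier results of these data known, so the counts are a description. Per1, a clock gene that cyclic AMP induces, read 3531 and 3100 with PGE2, against 1180 and 1133 in control, and Ier5l 25624 and 27462, against 9183 and 10290. Groups were well apart for both, at log2 changes of 1.52 ± 0.16 and 1.45 ± 0.16 (adjusted p = 0.0616 and 0.0635, limma). With an intensity trend in the variance model, 2 genes of the list were called higher. Egr1, a zinc finger factor induced through SRF as Fos is, pointed the other way from Junb. It read 1203 and 1433 with PGE2, against 2712 and 2403 in control, a log2 change of -0.96 ± 0.18 (adjusted p = 0.129). Ier3 stood at 1.32 ± 0.43 (adjusted p = 0.246). Dusp1, a phosphatase of the kinases that activate Jun, overlapped between groups, with 5480 and 3404 in PGE2 cultures and 11647 and 1938 in control cultures, a 6.01-fold gap between controls. Zfp36, whose protein promotes decay of many early transcripts, overlapped too, at -0.25 ± 0.29 (adjusted p = 0.688).

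The kinases and promoter factors that act on AP-1 genes gave 0 calls among 27 tested of 28. Of all tested genes, 0.396% were called higher and 0.272% lower, so a list of this length could hold 0 calls at these shares. Their median log2 change was -0.09, or 0.16 on the authors' scaled values, where all tested genes had a median of 0.23. Stat3, which binds the Junb promoter in response to interleukin 6 type cytokines, read 16784 and 16166 with PGE2, against 7923 and 7553 in control. Its log2 change was 1.09 ± 0.15 (adjusted p = 0.0847, limma), while its other 2 kept probes stood at 0.67 and 0.19. Map3k1, a kinase upstream of JNK, stood at -0.97 ± 0.20 (adjusted p = 0.137), with a second kept probe at -0.46. Mapk12, which encodes p38 gamma, stood at -0.66 ± 0.20 (adjusted p = 0.235), with a second kept probe at -0.43. Srf, the factor that binds the CArG box, read 1325 and 1789 with PGE2, against 3057 and 2221 in control, a log2 change of -0.76 ± 0.26 (adjusted p = 0.268). Both PGE2 arrays lay below both controls. Its cofactor gene Elk3 stood at 0.25 ± 0.16, the ERK1 gene Mapk3 at 0.21 ± 0.15 and the JNK1 gene Mapk8 at 0.10 ± 0.19 (adjusted p = 0.482, 0.526 and 0.826). A second kept probe of Elk3 stood at 0.22, and the other 2 kept probes of Mapk8 at 0.42 and 0.23.

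Genes that have been described as AP-1 targets held 3 called genes among 25 tested of 30, all higher with PGE2 and 0 lower, where 0.396% and 0.272% of all tested genes were called higher and lower. At an unadjusted p under 0.05, 7 stood higher and 4 lower, or 44.0% of the list, where 17.8% of all tested genes passed. The list was chosen with earlier results of these data known, so these counts are a description. Some of these genes, such as Il6, passed the filter only through the group where they are high. The median log2 change of the list was 0.31, against -0.03 over all tested genes. It was 0.57 against 0.23 on the authors' scaled values and 0.54 against 0.010 with quantile normalization. It moved between 0.15 without control replicate 2 and 0.72 without PGE2 replicate 1, where all tested genes stood at -0.054 and -0.045. Without the filter on dim probes it was 0.0047, against -0.33 over all tested genes. Such genes have other regulators too. Sprr1a, a small proline-rich protein gene with AP-1 sites known from keratinocytes, read 13866 and 18249 with PGE2, against 731 and 802 in control. It rose by a log2 change of 4.38 ± 0.21 (adjusted p = 0.0438, limma). The metalloproteinase inhibitor gene Timp1 read 92383 and 90983 with PGE2, against 15214 and 14321 in control, and rose by 2.63 ± 0.15 (adjusted p = 0.0438). The chemokine gene Cxcl1 read 13989 and 13666, against 1338 and 2014, and rose by 3.07 ± 0.25 (adjusted p = 0.0465). These calls sat close to the threshold: 0 genes of the list were called higher without control replicate 1 or without control replicate 2, 1 without PGE2 replicate 1, 0 on the authors' scaled values and 0 without the filter on dim probes. With an intensity trend, and with normexp correction, 4 were called higher and 1 lower, and without PGE2 replicate 2, 2 were called higher and 1 lower.

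Other named targets missed the threshold. Il6 read 1304 and 803 with PGE2, against control signals of 19.5 and 46.8 that were not well above background. Its PGE2 signal was thus higher at least 24.97-fold (adjusted p = 0.0576, limma), and it was kept only through the PGE2 arrays, where it is high. Ccnd1, the cyclin D1 gene, read 2622 and 3265 with PGE2, against 10391 and 9488 in control, at -1.76 ± 0.19 (adjusted p = 0.0616). The groups were well apart for Ccnd1, in the direction opposite to Sprr1a, Timp1 and Cxcl1. Plaur, the urokinase receptor gene, stood at 0.90 ± 0.56 and Ptgs2, the inducible cyclooxygenase gene, at 1.26 ± 0.94, both with overlapping groups (adjusted p = 0.467 and 0.539). Mmp3, the stromelysin 1 gene, read 18769 and 12810 with PGE2, against 12457 and 59.2 in control. Only control culture 2 was low, so the log2 change of 4.18 ± 2.69 (adjusted p = 0.484) rested on that culture.

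**Figure D3:**
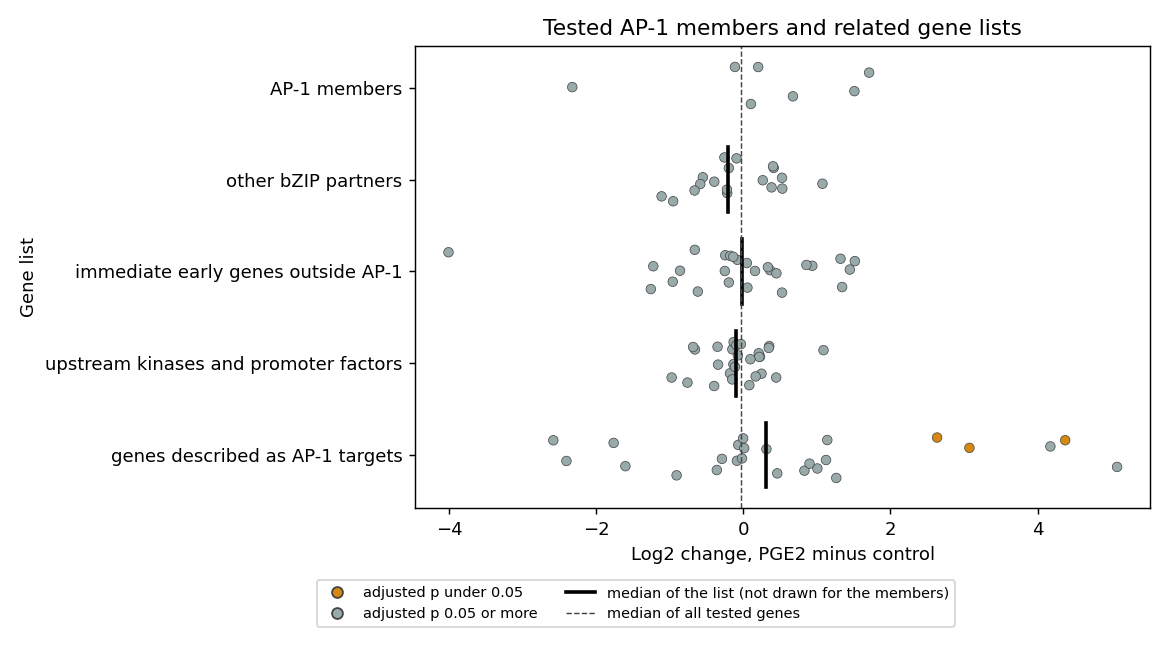
Log2 change, PGE2 minus control, of every tested gene of the AP-1 family and of 4 related gene lists, 1 point per gene with vertical scatter added for legibility. Black bars are list medians, drawn for the 4 lists, the dashed line is the median of all tested genes at -0.03, and orange points have an adjusted p under 0.05. The 3 orange points, Sprr1a, Timp1 and Cxcl1, all lie among the described targets.

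The genes nearest to a member in pattern were found by the root mean square distance between log2 values centred on their mean over the 4 arrays, among 11686 other named genes well above background on all arrays. Junb, which had the largest change among members well above background on all 4 arrays, was closest to Sod3, the extracellular superoxide dismutase gene, at a distance of 0.0892, followed by Wnt5a at 0.164, Tpcn2 at 0.192, Nfkbiz at 0.202 and Tmem178 at 0.209. All of these genes were higher on both PGE2 arrays than on either control array, with control array 1 above control array 2. Their log2 changes ran from 1.38 to 1.82, and none was called. Fos, which had the largest gap between replicates among the same members, was closest to Ankrd33b at 0.166, Zbtb46 at 0.223, Gdpd2 at 0.233, Ankrd1 at 0.261 and Atp6v1g2 at 0.278. All of these were higher on PGE2 array 2 than on PGE2 array 1. The neighbours were picked on these same values, so their shared order of arrays and similar changes follow from the choice. A likeness over only 4 arrays is a description of these arrays.

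**Figure D4:**
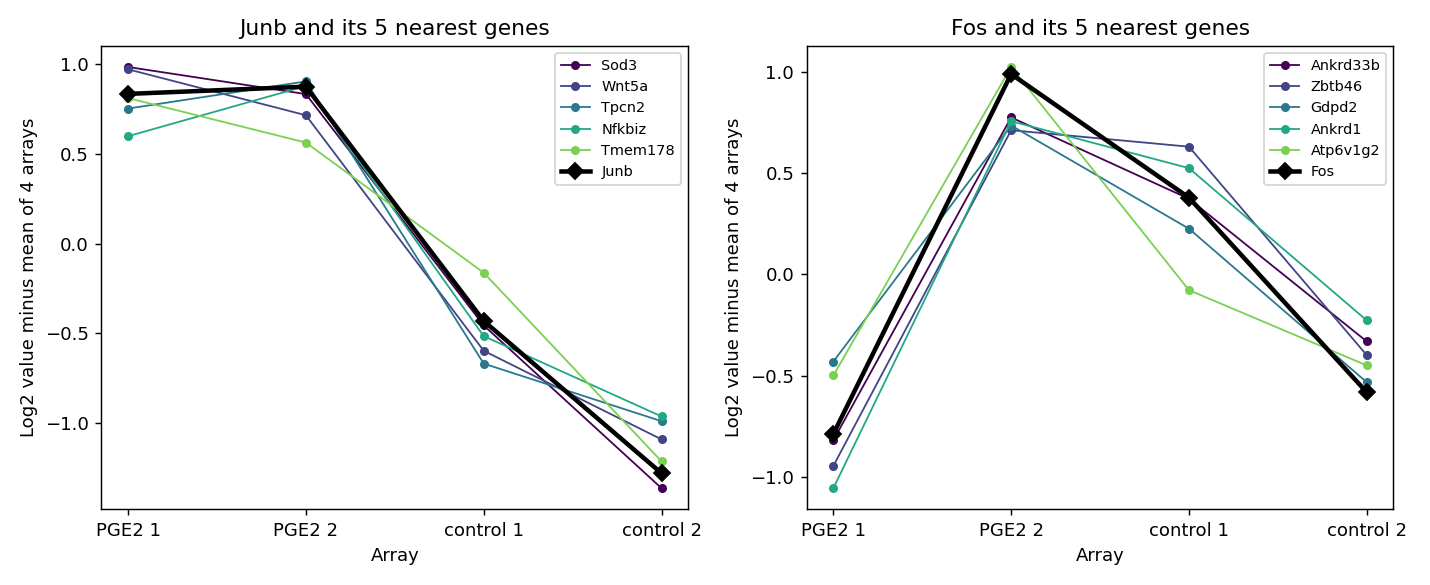
Log2 value minus its mean over the 4 arrays on the vertical axis, for Junb and Fos (black) and the 5 genes nearest to each (coloured lines), on PGE2 arrays 1 and 2 and control arrays 1 and 2. Junb and its neighbours are high on both PGE2 arrays, whereas Fos and its neighbours differ between the PGE2 arrays. The likeness follows from picking the neighbours on these values.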

How the data were processed

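RNA of 4 cultures, 2 given PGE2 and 2 controls, was measured on 1 Agilent array each, and groups were taken from the sample titles. The deposited scanner files hold a background-corrected processed intensity per spot, made with Agilent Feature Extraction 11.5.1.1 per the file headers, and version 12.0.3.1 appears in the submitters' processing notes. The authors' deposited series file holds the same intensity times 1 constant per array (between 0.945 and 1.07) and gave the gene symbols. Its 4 columns of detection calls were not used. All arrays share 1 scan identifier, so no batch could be tested.

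Processed intensities were put on the log2 scale, and the 75th percentile of each array was subtracted. Spots with outlier flags were left out (none of the members') and spots of 1 probe averaged. A probe was kept if both arrays of either group were well above background (26100 probes), and each gene was read from its brightest kept probe. Printed intensities were rescaled to the geometric mean of the 4 percentiles. PGE2 was compared with control by limma 3.58.1 (lmFit, eBayes) in R 4.3.3 with Benjamini-Hochberg adjustment over all 17660 tested genes, at a threshold of 0.05. The fit has 2 residual and 2.15 prior degrees of freedom. On simulated data with independent errors, its mean fitted changes lay close to the planted ones. That simulation set no condition on false calls, so it does not vouch for the p-values. The precision is limited by the number of arrays.

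Alternatives varied the normalization, background correction, filter, probe choice, variance model, replicate block and arrays included, with the kept probes unchanged when an array was left out. The members, gene lists and tests were chosen with earlier results of these data known. Named outside the family were key genes of each list fixed by name, the 3 smallest p of each list among genes whose groups did not overlap, and all called list genes.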

Additional observations from a re-analysis of the deposited data

How the results depend on the processing

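Each member and count was recomputed under 14 alternatives, and the members also in a fit over all kept probes. Atf3 has no value with the filter on all 4 arrays, which it did not pass. The normexp alternative planned on the mean signal could not be run because the files hold no such column, so it was run on the median signal, a choice made after seeing the data. Of the members, 0 were called under every alternative except an intensity trend in the variance model, which called 1 higher, Fosl2 at 1.51 (adjusted p = 0.0460, limma). Over all alternatives the log2 change was 1.41 to 1.77 for Fosl2, 1.29 to 2.14 for Junb, 0.39 to 0.96 for Jund and -3.33 to -1.13 for Atf3. Fosb turned to 0.018 with quantile normalization, 0.14 on the authors' scaled values, 0.10 without PGE2 replicate 1 and 0.24 without control replicate 1, and was -0.47 at the lowest. Fos turned to -0.69 without PGE2 replicate 2 and -0.28 without control replicate 2, and reached 1.09. Jun turned to -0.015 without PGE2 replicate 2 and -0.0072 without control replicate 2, and reached 0.22 without PGE2 replicate 1 and 0.36 on the authors' scaled values. On the authors' scaled values all changes moved up together, with the median of all tested genes at 0.23, against -0.03 in the main fit. The turns without 1 array were in genes whose groups overlapped, where the sign rests on single arrays. What caused the turn of Fosb with quantile normalization was not tested. Over all genes, 70 higher and 48 lower calls became 0 and 0 on the authors' scaled values (smallest adjusted p 0.0565, limma, 4203 genes at an unadjusted p under 0.05), 0 and 0 without the filter (2685 genes), 39 and 15 with the filter on all 4 arrays and 34 and 24 with robust variances. Leaving out 1 array gave 0 to 98 higher and 0 to 76 lower calls, with 0 without control replicate 1 or 2 (2710 and 2963 genes at an unadjusted p under 0.05). With the replicate number as a block, 88 genes were higher and 84 lower, and no member was called. In that fit the adjusted p was 0.0638 for Fosl2, 0.0916 for Junb, 0.141 for Jund and 0.198 for Atf3 (limma). The deviations of same-numbered arrays correlated at 0.42 across genes. The labels do not say whether same-numbered cultures share more than a number, and with 2 pairs this was not tested. Dim probes, among them those of Fosl1, Fosb, Fos and Atf3, limit what can be measured.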

Other observations

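Some genes of the lists, picked here after their values were seen, differed more between the control cultures than between the PGE2 cultures, with control culture 1 the higher. Hmox1, the heme oxygenase 1 gene, read 6098 and 4414 with PGE2, against 10426 and 2647 in control, so that its groups overlapped. Atf3, Atf4, Dusp1 and Mmp3 had the same order of the control cultures, while Myc, Fgf7, Maf and Spp1 had the opposite one. In control, Spp1 read 2157 and 16288 and Maf 244 and 622. Myc and Spp1 differed more between the PGE2 cultures than between the control cultures. Arc, an early gene best known from neurons, was far apart within both groups, with 9.69 and 90.2 in PGE2 cultures and 1417 and 160 in control cultures.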
